A study of Arabidopsis thaliana with 2 samples.

Results

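The ATG8 genes encode the ubiquitin-like proteins that mark autophagosome membranes, and ATG3 encodes the enzyme that attaches them there. The 9 ATG8 genes (ATG8A to ATG8I) and ATG3 were chosen by locus, and each was measured by 1 probe that the platform annotation assigned to 1 gene, so that 10 of 10 members were measured, out of 9253 genes with such probes. The family was put forward because its values in this same comparison had been seen to lie above 0 together. Its values are therefore a description, and no test of the members is given.

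Gene expression was compared between *Arabidopsis thaliana* plants that over-express NST1 from the 35S promoter and wild-type plants. NST1 belongs to the NAC transcription factors and turns on the building of secondary walls, and the 35S promoter drives a transgene in most tissues. Total RNA came from rosette leaves 2 weeks old, grown untreated in 16 h light and 8 h dark, of 2 independent first-generation (T1) transformants, no. 36 and no. 44. Each over-expressor was hybridised in Cy5 on 1 array of 2 colours against wild type in Cy3, and both plants were described by the submitters as forming secondary walls outside their usual cells. Each T1 plant stands for its own transformation event. The dyes were not swapped on either array, so that a dye effect and the genotype cannot be told apart, and the labels name no more than 1 wild-type control, whose own spread is not measured.

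The values are the deposited log ratios, 1 for each probe and array, read here as log10, with the over-expressor probably on top of the ratio. Neither base nor centring nor direction is stated in the labels or the file, so each fold holds only if the base is 10, and each "higher", "lower", "rose" and "fell" only if the over-expressor is on top. If it is not, every sign turns round. The medians over all 22575 probes were -0.002 for plant 36 and -0.004 for plant 44. No named probe stood for NST1, so the labels could not be checked on it. Signal over background is not known here, and with 2 arrays the precision is low. A ratio gives no level of a transcript in leaf RNA, so members cannot be ranked by abundance and the labelled tissue could not be checked on the presence of its markers. In RNA of whole leaves, more cells of a type and more RNA per cell cannot be told apart. Probes for the same gene agreed loosely: across 77 genes with 2 probes, their mean log ratios correlated with Pearson r = 0.235 and Spearman rho = 0.368 (a description across genes that share both arrays), and in 46 of the 77 both probes lay on one side of 0. Each member rests on 1 probe. The ATG8 transcripts resemble each other, and whether a probe for one also bound another was not tested.

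Autophagy carries cytoplasm to the vacuole for breakdown inside a vesicle with a double membrane. ATG8 is made as a precursor, cut by the protease ATG4 behind a glycine near its end, activated by ATG7, passed to ATG3 and joined to the lipid phosphatidylethanolamine on the growing membrane, with a complex of ATG12, ATG5 and ATG16 helping at the last step. ATG8 on the membrane then binds receptors that bring in cargo. In leaves the pathway recycles nitrogen and carbon during starvation and senescence, and it has been linked to the differentiation of xylem vessel elements. The plant ATG8 proteins form a group of ATG8A to ATG8D, a group of ATG8E to ATG8G, and a more distant pair, ATG8H and ATG8I, whose proteins end at the glycine and so need no cut by ATG4.

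The 10 members lay above 0 on both arrays, as did 42.2% of all 9253 genes, while 41.1% lay below 0 on both. Their median log ratio was 0.253 in plant 36 and 0.157 in plant 44, against medians of 0.002 and 0.000 over all genes on those arrays. The median of the members' means over both plants was 0.202, or 1.59-fold higher in the over-expressors if the ratio runs as read here, and 1.59-fold lower if it runs the other way. Means ran from 0.10 for ATG8D to 0.35 for ATG8H. At least 1.5-fold higher on both arrays were 3 members, ATG8A, ATG8B and ATG8H, a limit that 7.54% of all genes met, while 8.54% were at least 1.5-fold lower on both. Nothing is read from these shares, since the same values led to the choice of the family.

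**Figure D1:**
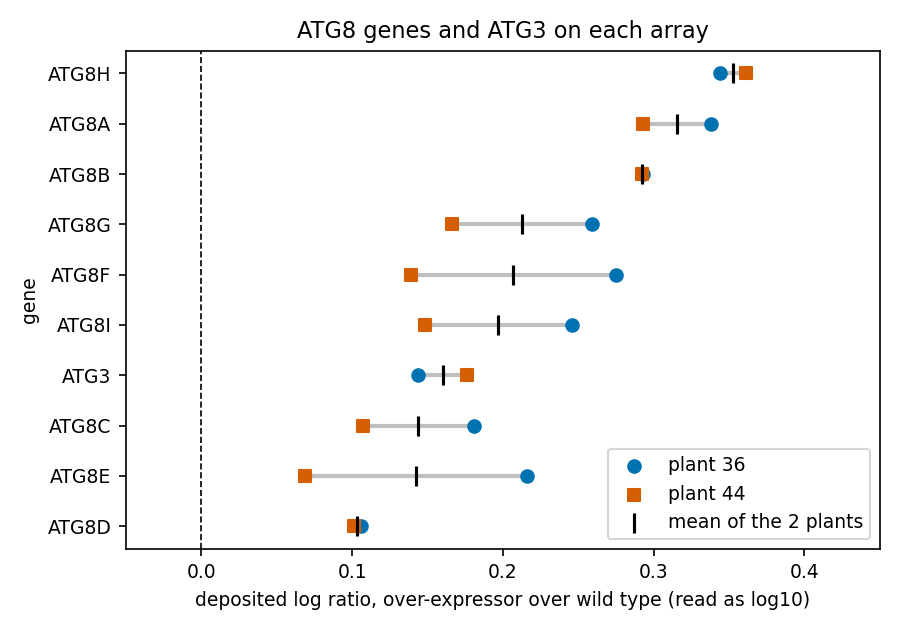
Log ratio of each ATG8 gene and ATG3 (rows, ordered by mean) on the array of plant 36 (circles) and plant 44 (squares), read as log10, with the mean of both as a tick and 0 as a dashed line. Each of the 10 genes lies right of 0 on both arrays, ATG8H highest at 0.344 and 0.361, and ATG8E has the widest gap between the plants.

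Among ATG8A to ATG8D, values fell into a high and a low pair. ATG8A (AT4G21980, listed as APG8A in RefSeq) had log ratios of 0.338 in plant 36 and 0.293 in plant 44, which are 2.18-fold and 1.96-fold, with a mean of 0.32 ± 0.03 (SD, n = 2 plants). ATG8B (AT4G04620) had 0.293 in plant 36 and 0.292 in plant 44, or 1.96-fold on both arrays, so that its plants differed by 0.001. This exact pair of values was held by 2 probes, that of ATG8B among them, and ATG8B was the 1 member whose pair was shared. ATG8A and ATG8B both exceeded at least 95.2% of the 9335 probes with 1 gene on each array. ATG8C (AT1G62040) lay lower, at 0.181 in plant 36 and 0.107 in plant 44, or 1.52-fold and 1.28-fold. ATG8D (AT2G05630) had the lowest mean of the family, with 0.106 in plant 36 and 0.101 in plant 44, or 1.28-fold and 1.26-fold. The values of ATG8A and ATG8B did not overlap those of ATG8C and ATG8D on either array.

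The 3 genes of the ATG8E to ATG8G group were each higher in plant 36, as were ATG8A to ATG8D and ATG8I. That direction does not set the group apart, and the gap of ATG8I, 0.098, lay within the group's range. ATG8E (AT2G45170) had 0.216 in plant 36 and 0.069 in plant 44, or 1.64-fold and 1.17-fold. Its difference of 0.147 was the widest among the members, and its value in plant 44 was the lowest single value of the family. ATG8F (AT4G16520) had 0.275 in plant 36 and 0.139 in plant 44, or 1.88-fold and 1.38-fold, a difference of 0.136. ATG8G (AT3G60640) had 0.259 in plant 36 and 0.166 in plant 44, or 1.82-fold and 1.47-fold, a difference of 0.093. The group's median was 0.259 in plant 36 and 0.139 in plant 44, and the values of the plants did not overlap within it. With 1 array for each plant the 3 genes are not replicates, so no difference between the plants is read from this.

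The 2 genes whose proteins end at the glycine had unlike values. ATG8H (AT3G06420) had 0.344 in plant 36 and 0.361 in plant 44, or 2.21-fold and 2.30-fold, and a mean of 0.35 ± 0.01 (SD, n = 2 plants). It was the highest member on both arrays, above 97.0% of probes with 1 gene in plant 36 and 96.9% in plant 44. ATG8I (AT3G15580, listed as APG8H in RefSeq, a symbol not to be taken for ATG8H) had 0.246 in plant 36 and 0.148 in plant 44, or 1.76-fold and 1.41-fold. Its values sat near those of ATG8F and ATG8G rather than near ATG8H.

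ATG3 (AT5G61500), the conjugating enzyme that hands ATG8 to the lipid, had 0.144 in plant 36 and 0.176 in plant 44, or 1.39-fold and 1.5-fold, with a mean of 0.16 ± 0.02 (SD, n = 2 plants). It lay below the median of the 9 ATG8 genes in plant 36 (0.259) and above it in plant 44 (0.148). By mean over both plants the order from highest to lowest was ATG8H, ATG8A, ATG8B, ATG8G, ATG8F, ATG8I, ATG3, ATG8C, ATG8E and ATG8D. From ATG8G to ATG8D in that order, neighbours had overlapping ranges over the 2 plants and are not separated by these data. ATG8H, ATG8A and ATG8B each had both values above those of the 7 other members.

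The arrays of the 2 plants differed in the size of these ratios. In 8 of 10 members the value was higher on the array of plant 36, the exceptions being ATG8H by 0.017 and ATG3 by 0.032, whereas 49.8% of all 9253 genes were higher there. Members spread with an SD of 0.079 in plant 36 and 0.097 in plant 44. Over the 10 members the 2 arrays correlated with Pearson r = 0.753 and Spearman rho = 0.733, a description across genes measured against the same kind of wild-type RNA in the same dye. Over all 9335 probes with 1 gene, Pearson r between the arrays was 0.872. The members cover a much narrower range of values, so these correlations cannot be compared. The median absolute difference between the arrays was 0.0595 over the members and 0.055 over all genes whose mean lay within the members' range. With 1 array for each plant, the difference between the arrays has no replicate check, and plant and array cannot be told apart as its source.

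**Figure D2:**
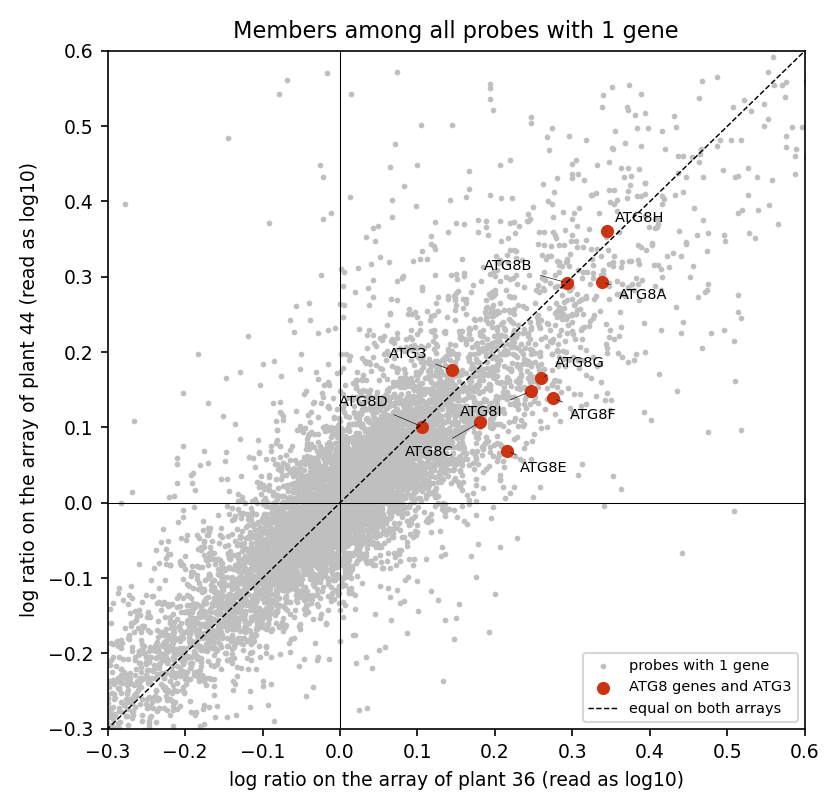
Log ratio on the array of plant 36 (horizontal) against that of plant 44 (vertical), both read as log10, for probes with 1 gene (grey) and the 10 members (red), with equality as a dashed line and the axes limited to the region around the members. ATG8B, ATG8D and ATG8H lie within 0.017 of the line, and ATG8E, at 0.216 and 0.069, lies farthest below it.

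With 2 arrays, likeness of pattern could be taken only as the distance between pairs of values. Nearest to ATG8H were AT3G46720 at 0.346 in plant 36 and 0.355 in plant 44, AT4G15670 at 0.343 and 0.353, and AT1G58420 at 0.36 in both plants. Within a distance of 0.05 of ATG8H lay 33 other probes with 1 gene. Nearest to ATG8D were AT3G04640, AT4G30460 and AT1G52140, each at 0.105 in plant 36 and at 0.101, 0.102 and 0.1 in plant 44, and 778 probes lay within 0.05 of it. The pair of values of ATG8D is thus a common one on these arrays, and that of ATG8H is less so.

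The other genes of the pathway were read from lists of loci written from general knowledge, and many of these loci carry no symbol in the RefSeq table, which could therefore not be used to check their roles. They were tested with limma over all 22575 probes, where 9.99% of probes with 1 gene rose and 12.4% fell at an adjusted p threshold of 0.05. Of 32 listed loci of the core machinery outside the members, 10 were measured, and none rose or fell over all probes. Of the 10, 5 had an unadjusted limma p under 0.05, as did 46.9% of all probes with 1 gene. Above 0 on both arrays lay 8 of the 10, while 1 lay below 0 on both and 1 had mixed signs. Of all 9253 genes, 42.2% lay above 0 on both arrays and 41.1% below. Whether the signs in this or a later list differ from those shares was not tested. The median of the 10 loci was 0.08, or 1.21-fold. Their highest mean, 0.143, was exceeded by 8 of the 10 members, ATG8D and ATG8E being the exceptions. The means of ATG8C, 0.144, and ATG8E, 0.1425, lay right beside that limit. Outside the core lists, AT1G01230, listed among proteins that bind ATG8, had a mean of 0.173, above ATG3, ATG8C, ATG8E and ATG8D. Since the members were chosen with their values known, this comparison is a description.

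Of the 8 listed loci of ATG8 and ATG12 conjugation other than ATG3, 2 were measured and neither passed. AT3G59950 had 0.152 in plant 36 and 0.107 in plant 44, or 1.35-fold by its mean (limma adjusted p = 0.0584). AT5G50230 had 0.074 in plant 36 and 0.079 in plant 44, or 1.19-fold (limma adjusted p = 0.0689). Both lay above 0 on both arrays and below most ATG8 genes. AT3G59950 passed with the arrays centred, centred and scaled, or with the fit limited to probes with 1 gene.

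A list of 18 loci held the ATG1 kinase complex, which starts autophagosome formation, and ATG9, ATG2 and ATG18 proteins, which supply membrane. Of these loci 5 were measured, none passed, and 4 lay above 0 on both arrays (median 0.06). The other loci of the list have no data, so the 5 need not stand for each part of it. AT3G61960 had 0.168 in plant 36 and 0.118 in plant 44, or 1.39-fold (limma adjusted p = 0.0558), and passed under the same 3 settings and with a robust prior. AT3G18770 had 0.130 in plant 36 and 0.044 in plant 44 (limma adjusted p = 0.167). The 2 probes of AT2G37840 disagreed, at 0.061 and -0.042 in plant 36, against 0.041 and 0.077 in plant 44.

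Of 6 listed loci of the phosphatidylinositol 3-kinase complex, which marks the membrane on which autophagosomes form, 3 were measured and none passed (median 0.10). The listed loci that were not measured have no data, so nothing is said of those parts of the complex. AT1G77890 had 0.087 in plant 36 and 0.119 in plant 44, or 1.27-fold (limma adjusted p = 0.0632). AT4G08540 had 0.112 in plant 36 and 0.080 in plant 44, or 1.25-fold (limma adjusted p = 0.0686). The remaining locus lay at -0.020 and -0.015. AT1G77890 passed with the arrays centred, centred and scaled, or with the fit limited to probes with 1 gene, and AT4G08540 in the last of these.

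Of 19 listed loci of proteins that bind ATG8 or adapt cargo and membranes to it, 6 were measured and none passed (3 of the 6 had an unadjusted limma p under 0.05, close to the 46.9% of all probes with 1 gene), with 4 above 0 on both arrays and a median of 0.08. AT1G01230 had 0.206 in plant 36 and 0.140 in plant 44, or 1.49-fold (limma adjusted p = 0.0552). AT3G43230 had 0.106 in plant 36 and 0.099 in plant 44, or 1.27-fold (limma adjusted p = 0.0502). Both passed with the arrays centred, centred and scaled, with a robust prior, or with the fit limited to probes with 1 gene. Of 6 listed regulators around the TOR and SnRK1 kinases, which hold autophagy back and release it with nutrient state, RAPTOR1 (AT3G08850), the partner of TOR, was the single one measured, at 0.005 in plant 36 and -0.005 in plant 44. The 6 listed transcription factors reported upstream of ATG genes had 0 measured members.

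**Figure D3:**
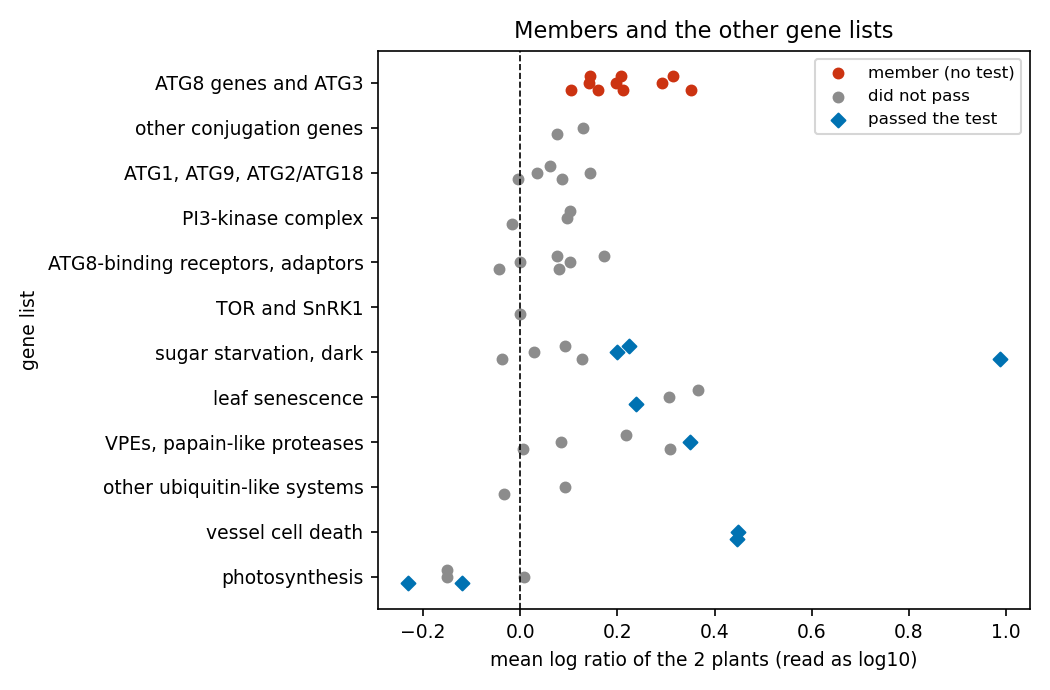
Mean log ratio of the 2 plants (horizontal, read as log10) for the ATG8 genes and ATG3 and for each measured gene of the other lists (rows); blue diamonds passed the limma test, grey circles did not, red circles are the members, which were not tested, and 0 is a dashed line. The 10 members run from 0.10 to 0.35, and the highest core autophagy gene outside them lies at 0.143.

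Genes of conditions in which leaves use autophagy were also read. Over all probes with 1 gene, 9.99% rose and 12.4% fell. Whether the counts in this list and the later ones exceed those shares was not tested. The lists were chosen with earlier results of these data known, so their counts are a description. Of 19 listed genes of sugar starvation and darkness, 7 were measured; 3 of these rose, none fell and 4 missed the threshold, with a median of 0.13, or 1.34-fold. AT4G33150, listed in RefSeq as the lysine breakdown enzyme LKR/SDH, had 0.871 in plant 36 and 1.105 in plant 44, or 9.73-fold (limma adjusted p = 0.0325). AT3G15450 had 0.223 in plant 36 and 0.225 in plant 44, or 1.67-fold (limma adjusted p = 0.0287). IVD (AT3G45300), the isovaleryl-CoA dehydrogenase of leucine breakdown, had 0.166 in plant 36 and 0.231 in plant 44, or 1.58-fold (limma adjusted p = 0.0476). Of the 7, 5 lay above 0 on both arrays. MCCB lay below 0 on both, at -0.034 in plant 36 and -0.041 in plant 44. MCCA had mixed signs, at 0.0695 in plant 36 and -0.013 in plant 44, and the means of its 2 probes were 0.079 and -0.0225. The members' median of 0.202 lay beside the means of AT3G15450 and IVD, and LKR/SDH stood far above each member.

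Of 14 listed genes of leaf senescence, 3 were measured; 1 rose, 2 missed the threshold, and all 3 lay above 0 on both arrays (median 0.31, or 2.03-fold, at 0.198 in plant 36 and 0.405 in plant 44). WRKY53 (AT4G23810), a transcription factor that promotes senescence, had 0.198 in plant 36 and 0.279 in plant 44, or 1.73-fold (limma adjusted p = 0.0466). Each of the 3 was higher in plant 44, whereas 8 of 10 autophagy members were higher in plant 36, and that contrast was not tested. Of 8 listed vacuolar processing enzymes and papain-like proteases, which act in the compartment where autophagic bodies are broken down, 5 were measured; 1 rose, 4 missed the threshold, and 2 of the 5 had mixed signs. The median was 0.22, or 1.65-fold, at 0.112 in plant 36 and 0.321 in plant 44. GAMMA-VPE (AT4G32940), a vacuolar processing enzyme of vegetative tissue, had 0.376 in plant 36 and 0.321 in plant 44, or 2.23-fold (limma adjusted p = 0.0296).

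Of 14 listed loci of other ubiquitin-like systems, which attach their modifiers by the same chemistry as ATG7 and ATG3, 2 were measured and neither passed. AT1G27530 had 0.136 in plant 36 and 0.047 in plant 44 (limma adjusted p = 0.162). SAE1A (AT4G24940), a subunit of the enzyme that activates SUMO, had -0.034 in plant 36 and -0.031 in plant 44 (limma adjusted p = 0.203).

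Markers of cell types were also read, beside the 9.99% of probes with 1 gene that rose and the 12.4% that fell. Of 7 listed genes of vessel cell death, 2 were measured and both rose, with summed log ratios of 0.778 in plant 36 and 1.012 in plant 44. scpl48 (AT3G45010), a serine carboxypeptidase-like gene, had 0.381 in plant 36 and 0.515 in plant 44, or 2.81-fold (limma adjusted p = 0.0388). AT4G04460 had 0.397 in plant 36 and 0.497 in plant 44, or 2.80-fold (limma adjusted p = 0.0326). Of 21 listed photosynthesis genes of leaf mesophyll, 5 were measured; 2 of these fell, none rose and 3 missed the threshold, with summed log ratios of -0.827 in plant 36 and -0.464 in plant 44. LHCB4.3 (AT2G40100), an antenna protein, had -0.236 in plant 36 and -0.227 in plant 44 (limma adjusted p = 0.0286). SBPASE (AT3G55800), an enzyme of the Calvin cycle, had -0.114 in plant 36 and -0.124 in plant 44 (limma adjusted p = 0.0437). LHCB4.2 (AT3G08940) had mixed signs, at -0.037 in plant 36 and 0.051 in plant 44 (limma adjusted p = 0.886). LHCB4.1 and RCA held an identical pair of values that 73 probes shared, so their place in that list is doubtful. Without them the summed log ratios of the other 3 were -0.387 in plant 36 and -0.3 in plant 44. The part of vessel cells, mesophyll or senescence in the values of the ATG8 genes was not tested.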

How the data were processed

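The values used are the deposited log ratios, read as log10, 1 per probe and array of 2 colours, for 22575 probes, none of them missing. The labels name the RNA and dye of each channel; the authors' scanning and normalization steps are not stated there. The values were read as log10 because they stay within -2 and 2, a limit that both arrays reached, and because scanner software that writes log10 was assumed. The software used is not stated, so the base stays an assumption. The values were not centred again.

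Probes were named through the platform's annotation and, by gene identifier, the TAIR10.1 RefSeq table: 9335 mapped to 1 gene, 40 to several, 13200 to none listed, and 9317 of the 9335 matched the RefSeq table. Probes of 1 gene were averaged, and a call then needed every probe past the threshold in the same direction. The fit, an intercept for each probe, used limma 3.58.1 (R 4.3.3) with moderation by empirical Bayes (residual degrees of freedom 1, prior 1.37) and a two-sided test against 0, with Benjamini-Hochberg adjustment over all probes and a threshold of 0.05. The test was checked on simulated data, but no outcome of that check is given here, so nothing rests on it. "Rose" and "fell" are used of genes past that threshold. The p-values rest on the difference between these 2 plants, with no spread of wild type.

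Of 146 listed loci in 12 lists outside the members, 41 were measured. The members and lists were chosen with earlier results of these data known. Named were all members, up to 4 genes of each list with the largest absolute mean among those past the threshold (the 2 largest where none passed), and the 3 genes nearest to the highest and the lowest member. AT2G37840, MCCA, MCCB, LHCB4.1, LHCB4.2, RCA and the third locus of the phosphatidylinositol 3-kinase list are given outside that rule. Alternatives were centring, scaling, the prior, the probes fitted, the threshold, the log base and each plant left out. Sequences of the members were not used here.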

Additional observations from a re-analysis of the deposited data

How the results depend on the processing

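The members' median log ratio of 0.202 was 0.157 without plant 36 and 0.253 without plant 44, and moved by less than the spread between plants with centring and with scaling, under which all 10 members stayed above 0 on both arrays. All members had 1 probe, so leaving out genes with several changed nothing. Read as log2, the fold of the median was 1.15 in place of 1.59. Among probes with 1 gene, limma called 933 that rose and 1156 that fell, against 1431 and 1441 with centring, 1517 and 1485 with centring and scaling, and 1609 and 1620 in a fit on those probes only, where the excess of falls was nearly gone or, with scaling, turned round. Without a prior, or at an adjusted p of 0.01, 0 rose and 0 fell in limma's ordinary and moderated test, and so in every list, with 1822 and 4377 such probes at an unadjusted p under 0.05. Without a prior, 104 of all probes with 1 gene, identical in both plants, had no spread to test against and are not among the 1822. In core autophagy the count that rose, 0 in the fit used, was 1 for conjugation, 1 for the ATG1 list and 1 for the phosphatidylinositol 3-kinase list with centring and with scaling, and 1, 1 and 2 in the fit on probes with 1 gene. A robust prior gave 1 for the ATG1 list. The receptor list had 2 that rose under each of these 4 settings. With the fit on probes with 1 gene, 5 starvation, 2 senescence and 2 protease genes rose, against 3, 1 and 1. Scaling gave 2 senescence and 2 protease genes, and centring and the robust prior 2 protease genes. The phosphatidylinositol 3-kinase median of 0.096 was 0.080 without plant 36 and 0.087 without plant 44. Without those plants the medians were 0.321 and 0.112 for proteases, 0.405 and 0.198 for senescence, -0.082 and -0.22 for photosynthesis, 0.094 and 0.043 for receptors, and 0.044 and 0.083 for the ATG1 list. For each of these shifts the cause was not tested. Calls without a plant were not run, since no residual degrees of freedom remain. No named gene past the threshold changed sign with centring or scaling. What signal over background limits is unknown, as no intensities were used.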
